A study of Rattus norvegicus with 12 samples.

Results

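Blood and microglial miRNAs were followed with 7 assays across the rat medial entorhinal cortex (MEC) samples: miR-150, miR-142-3p, miR-142-5p, miR-223, miR-451, miR-155 and miR-146a, all known from blood cells or from microglia, the resident macrophages of the brain. They were found by name on a TaqMan card, which reads one miRNA per well by quantitative PCR, and made up 7 of its 375 miRNA assays. The study asked which miRNAs set stellate cells apart from their neighbours; these are neurons of layer II whose axons reach the hippocampus. The 5 stellate samples were cells of Long Evans pups that carried DiO, a retrograde dye injected into the dentate gyrus on postnatal day 2, and that were sorted by fluorescence on day 4 or 5 after dissociation of the MEC. The 5 non-stellate samples were the DiO-negative cells of the same sort, a mixture of cell types that can include stellate cells the dye had not reached. Before sorting, the suspension passed a density gradient whose top and densest layers were discarded, and the sort was gated on scatter and on exclusion of propidium iodide, so that both groups are a selected share of the dissociated cells. The 2 tissue samples were MEC pieces dissected from rats of day 23, which were neither dissociated nor sorted, and their RNA was purified with another kit than that of the sorted cells. Age, sorting and kit therefore cannot be told apart in any comparison with tissue. In such bulk samples fewer cells of a type and less RNA per cell cannot be told apart either.

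MiRNAs are short RNAs that guide Argonaute proteins to messenger RNAs, mainly through their seed, the bases next to the 5′ end. MiR-150 is abundant in mature lymphocytes and represses the transcription factor Myb. Both arms of miR-142 are made across the haematopoietic lineages, microglia included, while miR-223 belongs to granulocytes and other myeloid cells. MiR-451 accumulates in red blood cells and is matured by Argonaute 2 without Dicer. MiR-155 and miR-146a are both induced by inflammatory signalling in macrophages and microglia, where miR-155 represses Socs1 and miR-146a represses Irak1 and Traf6.

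The mature sequences show which assays share a precursor or a seed. The RefSeq set used (rat, GRCr8) had mature sequences for 6 of the 7 miRNAs, with none for miR-150. Each of the 6 is given 5′ to 3′ with its seed, bases 2 to 8, in capitals. MiR-146b, an immune miRNA described below, is added for its seed.
miR-142-3p: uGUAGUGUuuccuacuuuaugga
miR-142-5p: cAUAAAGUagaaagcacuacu
miR-223: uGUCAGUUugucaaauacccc
miR-451: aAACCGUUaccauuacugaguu
miR-155: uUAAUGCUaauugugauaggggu
miR-146a: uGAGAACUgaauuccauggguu
miR-146b: uGAGAACUgaauuccauaggcugu
The 6 miRNAs had 6 different seeds, so none of them shares a seed with another of the set. MiR-146b has the seed of miR-146a, and 2 of the 22 positions compared between them differ. The miR-142 arms lie on the plus strand in one 87-base hairpin, miR-142-5p at chr10:73055119-73055139 and miR-142-3p at chr10:73055155-73055177. MiR-451 lies at chr10:63459585-63459606 on the plus strand, and 89 bases separate its hairpin from that of miR-144, another erythroid miRNA. MiR-223 lies at chrX:65151450-65151470 (plus), miR-155 at chr11:37261117-37261139 (plus), miR-146a at chr10:28350053-28350074 (minus) and miR-146b at chr1:255144874-255144897 (plus).

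Levels are given as Ct, the PCR cycle at which a well crosses its detection threshold. Ct is a log2 scale that falls by 1 for each doubling of the template, and a well that never crossed is entered as 40 and called undetermined. U6-scaled Ct is Ct minus the mean of the 4 wells of U6, a small nuclear RNA, in the same sample. Log2 differences below are turned so that a positive value means more miRNA. Determined miRNA assays numbered 234 to 260 in stellate, 203 to 241 in non-stellate and 292 to 302 in tissue samples, and the highest determined Ct was 38.2. U6 came up at 16.5 to 19.0 cycles in stellate, 17.7 to 20.2 in non-stellate and 15.6 to 16.0 in tissue samples. Non-stellate 3 and 5 carry a description that reads labeled, against their titles, sources and fluorescence, and results that rest on them are given with and without them.

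The set split by detection. MiR-150, miR-142-3p, miR-223, miR-155 and miR-146a were determined in all 12 samples, as were 46.9% of the assays on the card. MiR-451 and miR-142-5p were undetermined in all 10 sorted samples and determined in both tissue samples, a pattern shown by 11 of the 375 assays (2.93%). For one assay, 2 of 2 against 0 of 10 gives p = 0.0152 by Fisher's exact test, two-sided. Each of the 11 assays has that same p because the pattern fixes it, so it is no evidence about miR-451 or miR-142-5p. It is also not adjusted for the 375 assays and counts the 10 sorted samples as independent, though they come from 5 biological replicates. Assays determined in all 12 samples came up earlier in tissue, at a median Ct of 23.7 against 28.0 to 30.9 in sorted samples.

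MiR-150 had the earliest Ct of the set in every sample, apart from the miR-155 wells of non-stellate 3 and 5 described below. Raw Ct was 23.1, 26.0, 27.8, 23.2 and 26.3 in stellate 1 to 5, 27.0, 27.3, 29.6, 27.2 and 31.2 in non-stellate 1 to 5, and 20.4 and 20.3 in tissue. After U6 scaling the values were 6.26, 7.82, 8.82, 5.28 and 9.80 in stellate samples, 8.88, 9.59, 11.7, 8.75 and 10.9 in non-stellate samples, and 4.47 and 4.74 in tissue. Stellate 1 and 4 lay close to tissue, stellate 3 and 5 lay among the non-stellate samples, and the sorted groups overlapped. The mean was 7.60 ± 1.84 in stellate samples (SD, n = 5), 9.97 ± 1.30 in non-stellate samples (SD, n = 5) and 4.60 ± 0.19 in tissue (SD, n = 2).

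**Figure D1:**
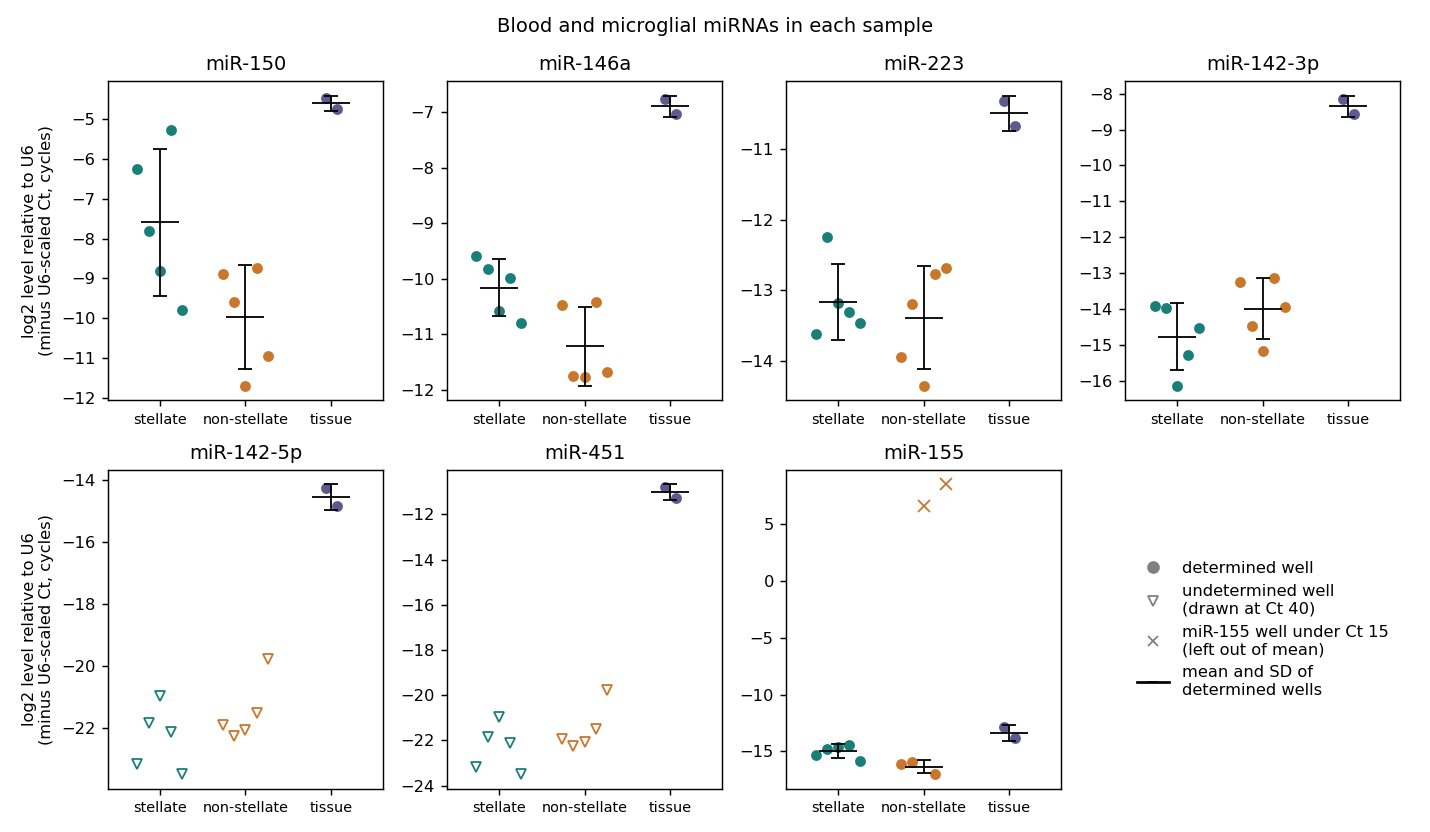
Level of each miRNA in each sample as minus its U6-scaled Ct (log2, cycles), so that higher points mean more miRNA; each panel has its own vertical axis. Points are samples, triangles are undetermined wells drawn at Ct 40, crosses are the 2 miR-155 wells under Ct 15, and lines are the mean and SD of the determined wells (crosses left out) for 5 stellate, 5 non-stellate and 2 tissue samples. Tissue lies above every sorted sample for each miRNA apart from the crosses of miR-155, and miR-142-5p and miR-451 have no determined sorted well. On this scale the median assay of the card was 3.04 higher in tissue. Assays outside the set, such as miR-16 and miR-9, separated likewise, miR-486 did not, and the share of all assays was not counted.

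Stellate samples held more miR-150 than the non-stellate samples of the same number in 5 of 5 pairs, but the difference did not pass the test over the card. The samples of one number are the labeled and unlabeled cells of one biological replicate, and the differences were 2.62, 1.77, 2.87, 3.46 and 1.15 in pairs 1 to 5. The means differed by 2.37 ± 0.92 (log2, SE; limma adjusted p = 0.587), and permuting the samples gave p = 0.0635 (exact, two-sided). By unadjusted p with U6 scaling it stood in place 4 of the 222 assays tested. Without non-stellate 3 and 5 the difference was 1.47. The study picked out miR-150 on these samples, so its direction here is not independent evidence.

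None of the 5 testable miRNAs of the set passed at an adjusted p of 0.05, and neither did any of the 222 assays (0%); at an unadjusted limma p under 0.05 there were 16 (7.21%), miR-150 among them. Of the 5, 3 lay above 0 and 2 below, with a median of 0.22, against 163 above, 59 below and a median of 0.46 for all assays. With U6 scaling most of the card was thus higher in stellate samples. Centring each sample on the median of its common assays instead moved that median to 0.07 and left 0 calls, with 28 assays (12.6%) at an unadjusted p under 0.05. MiR-150 was then 1.98 ± 0.84 higher (limma adjusted p = 0.35) and stood in place 24 by unadjusted p.

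MiR-146a, the brake on Irak1 and Traf6, was the other member higher in every stellate sample of a pair. Its U6-scaled Ct was 9.59, 9.83, 10.6, 9.997 and 10.8 in stellate 1 to 5, 10.5, 11.8, 11.8, 10.4 and 11.7 in non-stellate 1 to 5, and 6.76 and 7.03 in tissue. Non-stellate 1 and 4 fell within the stellate range and the other non-stellate samples lay beyond it. The difference was 1.06 ± 0.51 (exact permutation p = 0.0476, limma adjusted p = 0.587). That permutation ignores the pairs and is not adjusted for the 5 members tested. Flipping the signs of the 5 pair differences gave p = 0.0625 (exact sign-flip permutation). Without non-stellate 3 and 5 it was 0.72. Median centring gave 0.66, with an exact permutation p of 0.175, a sign-flip permutation p of 0.25 and 4 of 5 pairs higher.

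The myeloid and pan-haematopoietic members did not follow miR-150. MiR-142-3p had U6-scaled Ct of 13.9, 14.0, 16.1, 15.3 and 14.5 in stellate 1 to 5, 13.3, 14.5, 15.2, 13.1 and 14.0 in non-stellate 1 to 5, and 8.14 and 8.57 in tissue. Stellate 3 had the least of all and the sorted groups overlapped. The difference was -0.77 ± 0.61, with stellate higher in 1 of 5 pairs (exact permutation p = 0.175, limma adjusted p = 0.71). It was -1.17 after median centring (exact permutation p = 0.111) and -1.15 without non-stellate 3 and 5.

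MiR-223, the granulocyte miRNA, had U6-scaled Ct of 13.6, 12.2, 13.2, 13.3 and 13.5 in stellate 1 to 5, 13.9, 13.2, 14.3, 12.8 and 12.7 in non-stellate 1 to 5, and 10.3 and 10.7 in tissue. The sorted groups covered nearly the same range. The difference of 0.22 ± 0.52 (exact permutation p = 0.595) became -0.17 under median centring, so no direction was set.

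MiR-155 could not be compared as deposited, because 2 wells stood far from all others. Raw Ct was 32.1, 32.9, 33.6, 32.3 and 32.4 in stellate 1 to 5 and 34.2, 33.6, 11.3, 35.5 and 11.7 in non-stellate 1 to 5, against 28.8 and 29.4 in tissue. The wells at 11.3 and 11.7 belong to non-stellate 3 and 5, the samples with the conflicting description, and precede U6 by 6.59 and 8.52 cycles. The earliest other miRNA in those samples was miR-9, a miRNA of neural progenitors and neurons, at 22.2 and 22.0. With these wells in, limma gave -8.21 ± 4.87 (adjusted p = 0.629). With them set to missing it gave 1.34 ± 0.61 (adjusted p = 0.555), the opposite direction. Over pairs 1, 2 and 4 the difference was 1.51, higher in 3 of 3 pairs, and no split of 3 against 3 can go below its exact permutation p of 0.1.

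**Figure D2:**
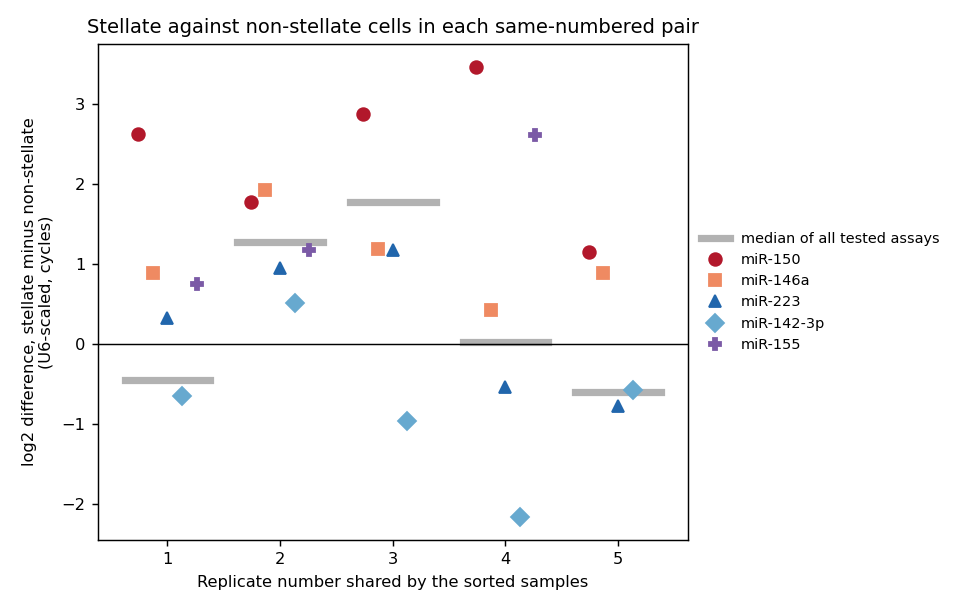
Log2 difference, stellate minus non-stellate (U6-scaled, cycles), in each of the 5 same-numbered pairs for the 5 testable miRNAs, with grey bars for the median of the 222 tested assays in that pair; miR-155 is left out of pairs 3 and 5, whose non-stellate wells were under Ct 15. MiR-150 lies above 0 and above the bar in every pair, by 0.50 (pair 2) to 3.44 (pair 4), while miR-142-3p lies above 0 in pair 2 alone.

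The bars in the plot of pair differences show where the whole card lay in each pair under U6 scaling. The median of all tested assays was -0.45, 1.27, 1.77, 0.02 and -0.60 in pairs 1 to 5. Relative to it, miR-150 was higher by 3.07, 0.50, 1.10, 3.44 and 1.75. MiR-142-3p relative to it was -0.20, -0.76, -2.74, -2.19 and 0.02, and thus below the card in 4 of 5 pairs.

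The ratio of miR-150 to miR-142-3p within a sample, which needs no reference RNA, was higher in stellate samples. It was set up with the directions of both miRNAs in these samples known, so its test is not independent evidence. As Ct of miR-142-3p minus Ct of miR-150 it was 7.65, 6.13, 7.31, 10.01 and 4.73 in stellate 1 to 5, 4.38, 4.88, 3.47, 4.38 and 3.01 in non-stellate 1 to 5, and 3.67 and 3.83 in tissue. Stellate 5 was the only stellate sample below the highest non-stellate sample, and tissue lay within the non-stellate range. The means were 7.17 ± 1.96 and 4.02 ± 0.76 (SD, n = 5 each), a difference of 3.15 (exact permutation p = 0.0159, two-sided). The ratio was higher in the stellate sample of each pair, by 3.27, 1.26, 3.84, 5.63 and 1.73, and as a replicate block these signs can give no lower than their sign-flip permutation p of 0.0625. Without non-stellate 3 and 5 the difference was 2.62 (exact permutation p = 0.0714). Against miR-223 in place of miR-142-3p it was 2.15 (exact permutation p = 0.0873), and against miR-146a 1.32 (exact permutation p = 0.119). No such ratio could be formed with miR-142-5p or miR-451.

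The assays whose profile over the 10 sorted samples was most like that of miR-150 were not blood miRNAs. Likeness was taken as the SD of the Ct difference from miR-150, over the 175 other assays determined in all 10 samples, and it ran from 0.565 to 11.1 cycles with a median of 1.86. MiR-126-3p, the endothelial miRNA, came first at 0.565, followed by miR-449a, a miRNA of ciliated epithelia, at 0.862 and miR-145, a miRNA of vascular smooth muscle, at 0.870. The assays of one sample share its pre-amplification and RNA amount, and the values are a description. Within the set, miR-146a stood in place 15 (1.32 cycles), miR-223 in place 105 (1.94), miR-142-3p in place 137 (2.17) and miR-155, with its early wells, last (11.1).

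MiR-126-3p followed miR-150 closely in the raw values. Its raw Ct was 24.5, 27.5, 29.2, 25.4 and 28.4 in stellate 1 to 5 and 27.8, 28.7, 30.9, 28.9 and 31.5 in non-stellate 1 to 5. It trailed miR-150 by 0.88 to 2.25 cycles in 9 of the samples and by 0.28 in non-stellate 5.

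**Figure D3:**
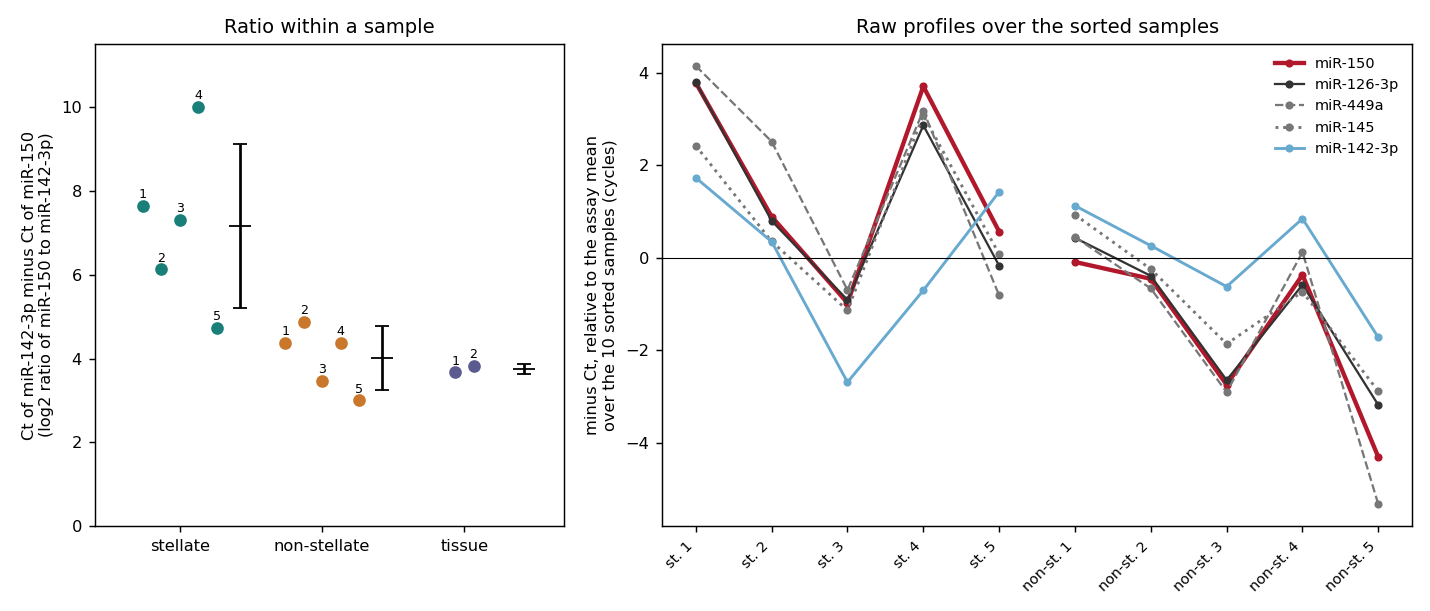
Left, Ct of miR-142-3p minus Ct of miR-150 (cycles, the log2 ratio of miR-150 to miR-142-3p) in each sample, numbered by replicate, with the mean and SD of each group; stellate samples lie between 4.73 and 10.01 and non-stellate samples between 3.01 and 4.88. Right, minus raw Ct of miR-150, its 3 nearest assays and miR-142-3p, each relative to its own mean over the 10 sorted samples (st., stellate; non-st., non-stellate); the distance of miR-126-3p from miR-150 has an SD of 0.565 cycles and that of miR-142-3p an SD of 2.17, and the latter is widest in stellate 4.

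Markers of vascular cells are given beside miR-150 because of that likeness. The 4 of the vascular list lay above 0, as did 163 of the 222 assays, and none passed; their median was 1.42, or 1.02 after median centring. MiR-126-3p differed by 1.73 (limma adjusted p = 0.587), with differences of 2.10, 1.61, 2.83, 2.83 and -0.72 in pairs 1 to 5. The sum of the 4 per 1000 of U6 was 0.844 to 16.0 in stellate samples (median 3.67), 0.501 to 3.77 in non-stellate samples (median 1.51) and 87.2 to 126 in tissue. In pair 5 miR-126-3p, miR-126-5p and miR-145 were lower in the stellate sample, by the log2 values -0.72, -1.54 and -0.76, while miR-150 was higher by 1.15. The median of all tested assays was -0.60 in that pair. MiR-143, the remaining miRNA of the list, differed by 2.69 (limma adjusted p = 0.587) and was higher in 5 of 5 pairs. Its 6.03 in pair 5 rests on an undetermined well in non-stellate 5. The part of vascular RNA in the miR-150 difference was not tested.

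The other lists gave no call between the sorted groups. Of 3 further erythroid miRNAs, miR-144 had no assay, miR-486 differed by 0.07 and miR-16, which most cell types share, by -0.51. Of 5 further immune miRNAs, 4 could be tested and lay between -0.25 (miR-21) and 0.61 (miR-342-3p), and miR-147 was determined in 1 sorted sample. The 5 neuron miRNAs lay above 0 in 4 cases and below in 1, with a median of 0.97, or 0.57 after median centring. Among them miR-138 differed by 1.70 and miR-128a by 1.39 (limma adjusted p = 0.587 for each), and miR-138 stood in place 7 of the likeness to miR-150. MiR-9 went the other way, at -0.41, or -0.80 after median centring. All 5 were determined in every sample. Their summed level per 1000 of U6 was 120.0 to 279.6 in stellate samples (median 143.7) and 54.0 to 367 in non-stellate samples (median 226), so its median was lower in stellate samples. The 6 miRNAs of the set without miR-155 summed to 1.81 to 26.8 in stellate samples (median 5.79) and 0.664 to 3.32 in non-stellate samples (median 1.74), with miR-150 the largest term in each sample. Of the oligodendrocyte miRNAs, miR-219 was determined in 0 stellate and 2 non-stellate samples, and miR-338-3p in 3 stellate and 0 non-stellate samples. The sums add wells of different assays, whose efficiencies may differ.

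In tissue of day 23, 4 of the 5 testable miRNAs were higher than in the sorted cells with U6 scaling, on a card where 141 of 220 assays (64.1%) passed, 139 of them higher (63.2%) and 2 lower (0.909%). MiR-142-3p led with 6.02 ± 0.70 (limma adjusted p = 2.66e-05). MiR-150 followed with 4.18 ± 1.07 (adjusted p = 0.00404), miR-146a with 3.80 ± 0.58 (adjusted p = 0.000123) and miR-223 with 2.78 ± 0.59 (adjusted p = 0.00124). For each of the 4, both tissue samples lay above every sorted sample, but the share of all assays that did so was not counted. The separation is not particular to the set. MiR-16 showed it as well (U6-scaled Ct 5.51 and 6.01 in tissue, 6.94 to 9.52 in sorted samples), as did miR-9, while miR-486 did not. The median of all assays was 3.04, and the value of miR-223 lay within 1 SE of it.

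Median centring, which takes out that common shift, left a call for miR-142-3p alone, at 3.03 ± 0.65 (limma adjusted p = 0.00262). On that scale 49.1% of the assays passed, 53 higher (24.1%) and 55 lower (25%), with a median of 0.05. MiR-150 was then at 1.19 (adjusted p = 0.321), miR-146a at 0.81 (adjusted p = 0.203) and miR-223 at -0.21 (adjusted p = 0.636). MiR-155 was at -2.48 ± 5.70 with the early wells (U6 scaling, adjusted p = 0.708). Without non-stellate 3 and 5 miR-155 was higher in tissue by 2.30 under U6 scaling (limma adjusted p = 0.00474). That value lay below 3.04, the median of all assays on that scale over the 12 samples. Median-centred Ct of miR-155 averaged 5.44 in tissue and 4.27 in stellate samples, so tissue held less than these, and reached 6.55 in non-stellate samples.

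**Figure D4:**
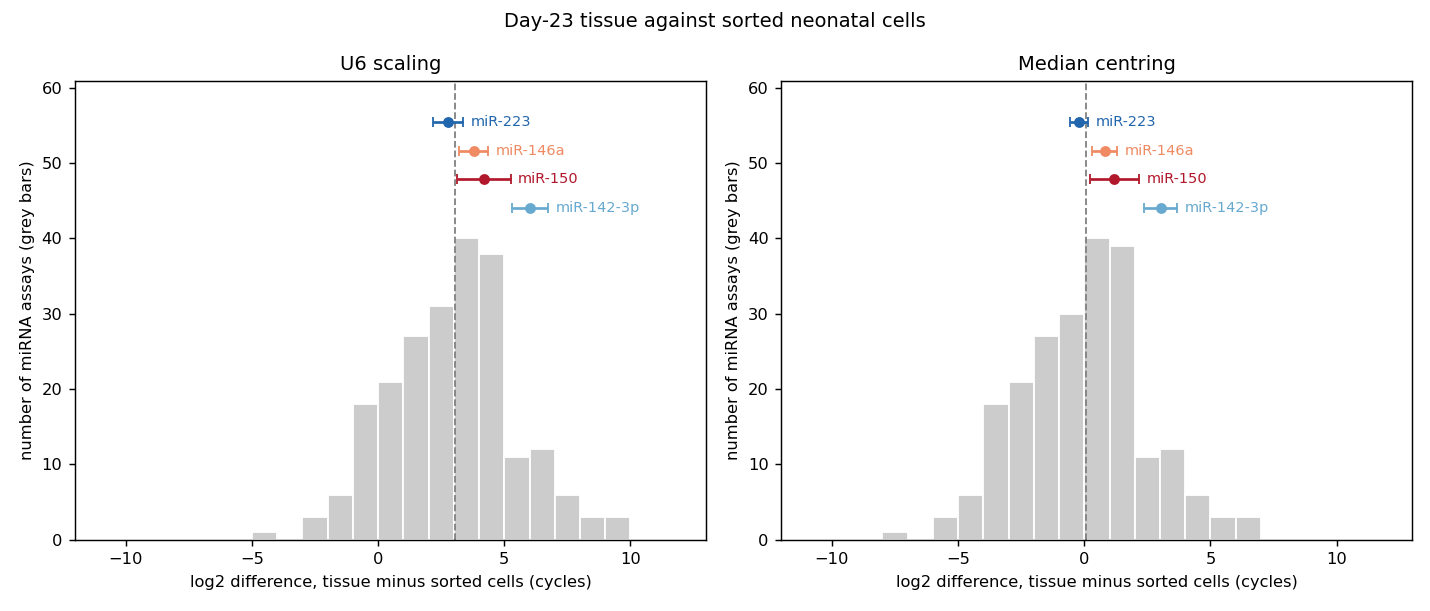
Log2 difference, tissue of day 23 minus the mean of the sorted groups (cycles), under U6 scaling and under median centring. Grey bars count the 220 tested assays, the dashed line is their median (3.04 and 0.05), and points with bars are the estimate and SE of 4 miRNAs; miR-142-3p lies to the right of the median under both scalings, and miR-223 lies on it within its SE.

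MiR-451 and miR-142-5p had no fitted value, being undetermined in the sorted cells. MiR-451 came up at 26.7 and 26.9 cycles in tissue, the earliest of the 11 assays determined in tissue only. With every sorted well set to the highest determined Ct of 38.2, the tissue mean exceeded the sorted mean by 9.10 (log2) with U6 scaling. With median centring it did so by 6.11. Against the sorted sample in which 38.2 gave the lowest scaled Ct, the values were 6.95 and 4.17. Had its tissue distance to miR-142-3p held in the sorted samples, miR-451 would have come up at 33.4 to 37.8, below 38.2 in 10 of 10. The 38.2 is the highest Ct of any assay, not a measured detection limit of miR-451, so these values are not firm bounds. Wells were lost earlier elsewhere: miR-143 stood at 31.4 to 33.0 in non-stellate 1 to 4 and was undetermined in non-stellate 5.

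For miR-142-5p such a projection says less. It came up at 30.2 and 30.4 cycles in tissue, 6.11 and 6.27 later than miR-142-3p of the same hairpin. The same distance would have put it at 36.9 to 41.3 in the sorted samples, below 38.2 in 4 of 10. It was undetermined in those 4 as well, and whether the distance holds in sorted cells was not tested. MiR-142-3p was determined in all 10.

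MiRNAs of the other lists were higher in tissue as well. Under U6 scaling, where 63.2% of the card rose, 4 of 4 tested immune, 4 of 4 vascular, 5 of 5 neuron and 1 of 2 erythroid miRNAs rose. Under median centring, where 24.1% rose, the counts were 2 of 4, 2 of 4, 2 of 5 and 0 of 2. Of the immune list miR-21, which activated microglia and many other cells make, stayed higher by 3.38 (limma adjusted p = 0.00727) and miR-146b by 1.94 (adjusted p = 0.0153), while miR-181a was at -0.36 and miR-342-3p at -0.75, neither past the threshold. Of the vascular list, miR-126-5p (3.79, adjusted p = 0.00511) and miR-126-3p (2.92, adjusted p = 0.022) passed. Of the neuron list, miR-129-3p (1.82, adjusted p = 0.000173) and miR-124 (1.27, adjusted p = 0.00986) passed. Of the erythroid list, miR-486 differed by -0.11 with U6 scaling and fell by 3.10 under median centring (adjusted p = 1.56e-05), opposite to miR-451.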

How the data were processed

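Card A of the TaqMan rodent set was read after reverse transcription and pre-amplification. The authors deposited raw Ct, on the log2 scale, with 40 in undetermined wells, and normalized log2 values, which equal Ct minus the mean U6 Ct of the sample (largest difference 7.1e-15). Their fold-change and limma tables hold their own comparisons and were not used. Groups came from titles and sources. The 7 members and all lists were chosen with earlier results of these data known, and the miRNAs named are the members, the 3 nearest assays to miR-150, and list members that passed (at most 4 per list) or serve as examples.

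Assays undetermined in at most 3 samples were tested, 222 of the 375 over the 10 sorted samples and 220 over all 12. Limma 3.58.1 in R 4.3.3 (lmFit, eBayes, two-sided, Benjamini-Hochberg over all tested assays, threshold 0.05) was fitted without a block, as the methods name none, for stellate against non-stellate samples and for tissue against the mean of the sorted groups. Single values were compared by exact two-sided permutation, with 252 splits for 5 against 5 samples and fewer where samples were left out. Sign-flip permutations of the 5 pairs had 32 arrangements. Fisher's exact test was run in scipy 1.17.1. Median centring used the 176 assays determined in all 10 sorted samples. Samples of one number are paired because the design describes labeled and unlabeled cells of 5 biological replicates; deviations from the group means correlated at 0.331, 0.12, 0.256, 0.155 and 0.0743 within pairs 1 to 5, against a mean of -0.0481 otherwise. Alternatives changed the scaling, block, undetermined wells, filter, samples and the miR-155 wells. Wells were single apart from U6 and no molecule count exists, so Ct stands in for depth. The number of samples limits the precision.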

Additional observations from a re-analysis of the deposited data

How the results depend on the processing

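Between the sorted groups, 0 members passed in each of 31 alternatives (0 to 0 with a sample or pair left out), with 3 to 48 assays of the card at an unadjusted p under 0.05. MiR-150 stayed higher in stellate samples in all of them, from 1.47 (without non-stellate 3 and 5) to 3.16 (snoRNA202 as reference). With the replicate block its limma adjusted p was 0.269, or 0.11 with median centring as well, and 26 or 48 assays of the card had an unadjusted p under 0.05; the block changed no call of a member. MiR-223 turned to -0.17 under median centring, with or without the block, to -0.11 under the global mean, and to -0.006, -0.017 and -0.014 without stellate 2, non-stellate 3 or pair 3 (-0.017 to 0.473 with any sample or pair left out). MiR-142-3p turned to 0.013 with snoRNA202. MiR-155 turned to 1.34 with its early wells missing or without non-stellate 3 and 5, and to 1.51 without pairs 3 and 5, an alternative chosen after seeing the data. The cause of these changes was not tested, beyond the removal of the early wells.

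The difference in the ratio of miR-150 to miR-142-3p ran from 2.44 to 3.75 with 1 sample left out (exact permutation p at most 0.0238). It lost its call with miR-223 (2.15) or miR-146a (1.32) as denominator, without non-stellate 3 and 5 (2.62) and in the exact sign-flip permutation of the pairs (3.15, p = 0.0625), where 0.05 cannot be reached.

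In tissue, 4 members passed in every leave-one-out fit (4 to 4), against 1 under median centring, 1 under the global mean (111 assays of the card called, 63 higher and 48 lower) and 1 with Y1 as reference (67 called, 17 higher and 50 lower, median -0.47). MiR-142-3p kept its call in all 28 alternatives, from 2.52 to 6.78. MiR-223 turned to -0.21 under median centring and -0.73 with Y1, and miR-155 to 2.30 with its early wells missing or without non-stellate 3 and 5 and to 1.62 against stellate samples alone. With no assay filter, 6 of 7 members passed beside 185 of 328 assays of the card, undetermined wells entering at 40. Of 296 alternatives for single members, 274 kept direction and side of the threshold, 7 lost a call and 15 changed sign.

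The samples limit these results in number, and the sorted cells in RNA: a miRNA of low level in an undetermined well cannot be told from an absent one. The tissue comparison rests on 2 samples of another age and preparation.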
